A study of Mus musculus with 2 samples.

Results

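The 10 desmosome genes Dsg1a, Dsg2, Dsg3, Dsc2, Dsc3, Dsp, Jup, Pkp1, Pkp3 and Perp were taken by name from the 20198 genes of a single-cell count table of the mouse cornea, and all 10 were present. Cells of whole corneas were sequenced as 2 droplet libraries, one per condition. The unwounded library (UW) pooled 8 corneas of 4 untreated mice, and the wounded library (W) pooled 8 corneas of 4 mice taken 24 h after the central corneal epithelium had been scraped off. The mice were males aged 6 to 8 weeks by the study's methods, and no strain, genotype or transgene is named. The scraped centre and the unscraped rim of the wounded corneas were not kept apart, so W holds epithelial cells of both.

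Desmosomes are the spot-like junctions that anchor the keratin filaments of neighbouring epithelial cells to one another. Their adhesive part is made of the cadherins of the desmoglein and desmocollin families, whose tails bind the armadillo proteins plakoglobin (Jup) and the plakophilins, and these in turn bind desmoplakin (Dsp), which holds the keratin filaments. In stratified epithelia such as the corneal epithelium the mix of cadherins changes between the lower and the upper layers, and junctions must be loosened when cells migrate into a wound.

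Among epithelial cells, Dsg1a was 9.07-fold lower in W than in UW, the largest difference of the 10 genes by fold, while its relative Dsg3 stood at nearly the same level in both. Dsc3, Dsp, Dsc2 and Perp were also lower by more than 1.5-fold, and Pkp3 alone was higher by more than 1.5-fold. Jup, Pkp1, Dsg2 and Dsg3 stayed within 1.5-fold. Summed over the 10 genes, the level was 7057 UMIs per 1000000 UMIs (CPM) in UW and 4306 CPM in W, 1.64-fold lower. A UMI, or unique molecular identifier, marks 1 captured RNA molecule, and CPM here means the UMIs of a gene summed over the cells of a cluster or of all 10 epithelial clusters, per 1000000 UMIs of those cells.

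There was 1 library per condition, and the deposited tables used here carry no assignment of cells to single mice, so no difference between UW and W was tested, no replicate error is given, and the intervals given (exact Poisson for levels, exact binomial for shares, 95%) cover counting error only. The wound, the pool of mice and the preparation of the cells cannot be told apart in 2 libraries. The reads come from the 3′ ends of RNAs and no level is divided by gene length, so levels are compared for 1 gene between cells, genes are set against each other only as shares of a family's UMIs, and a sum over the 10 genes is a count of UMIs that weighs the genes with most UMIs most. A gene was counted as higher or lower where it differed by at least 1.5-fold. Of the 7456 genes at 10 CPM or more in either library, 24.6% were higher and 19.0% lower by that rule in the summed epithelial cells, beside 1 higher and 5 lower of the 10 desmosome genes. Taken cluster by cluster, 13 of the 100 pairs of gene and cluster were higher and 38 lower, beside 18.0% and 23.1% of all 70266 pairs. All 10 genes passed the filter of 10 CPM in every epithelial cluster, Dsg1a in clusters 7 and 9 only through its UW level. The median log2 ratio was -0.40 over the 10 genes and 0.05 over all genes tested.

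The UW library held 13501 epithelial cells with 332977270 UMIs and the W library 8507 with 239014699 UMIs, in the deposited clusters 1 to 9 and 11. By marker genes other than the 10, cluster 3 was basal-like, cluster 9 limbal-like, cluster 8 mitotic-like, cluster 11 S phase-like, cluster 5 conjunctival-like, clusters 1, 2 and 4 suprabasal-like (by 1 list of suprabasal and differentiating markers), and clusters 6 and 7 superficial-like, names that rest on marker genes alone. Dsg1a and its copy Dsg1b were themselves among the 10 leading genes of cluster 4, so levels across clusters are descriptions. The share of cluster 1 among epithelial cells was 18.2% in UW and 6.95% in W, and that of cluster 8 was 3.96% and 15.7%, so an epithelial sum also moves with the mix of clusters. Summed over 5 neutrophil markers, the epithelial level was 23.0 CPM in UW and 697 CPM in W, and 352 to 1050 CPM in the W cells of the single clusters. It came almost wholly from S100a8 and S100a9, since Csf3r, Cxcr2 and Retnlg stood at 0.20 to 0.45 CPM in W, and its part in the results was not tested. The libraries shared 52 cell barcodes.

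**Figure D1:**
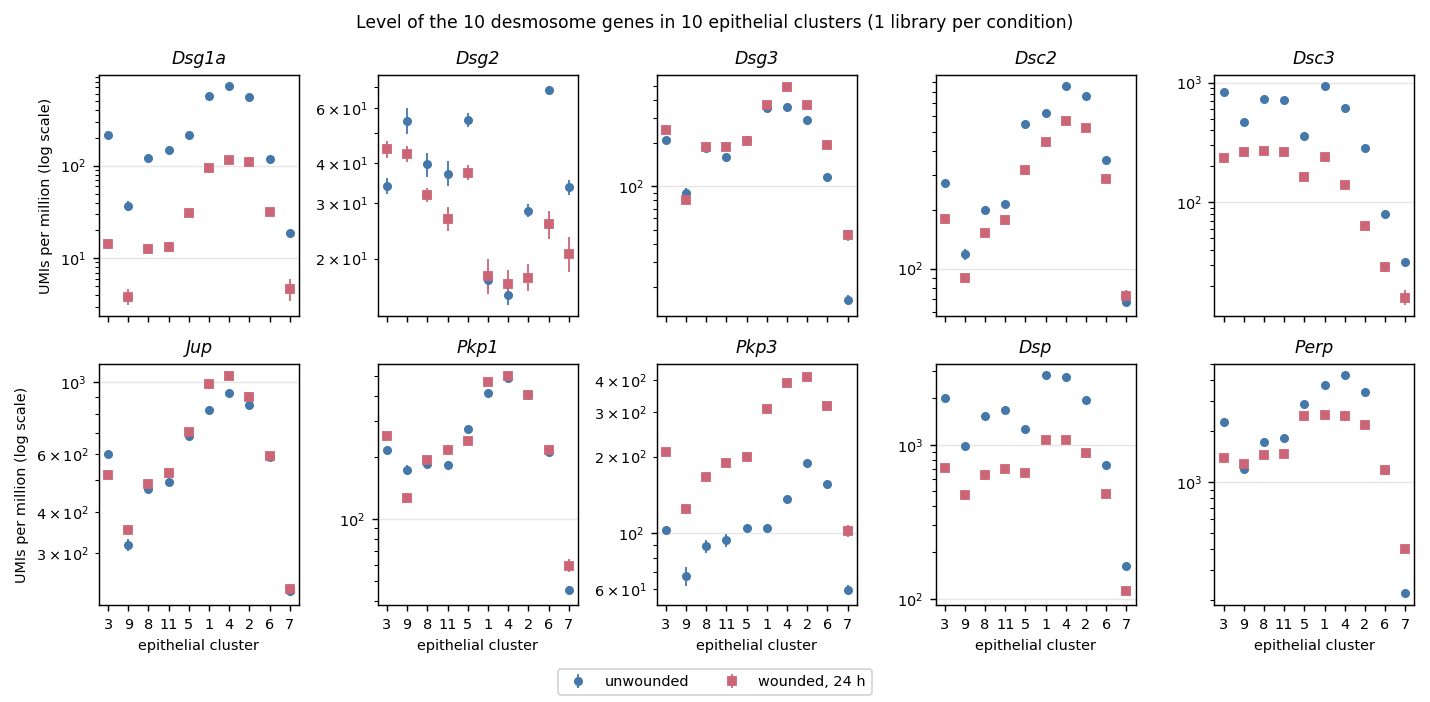
Level of each desmosome gene in the 10 epithelial clusters, in UMIs per 1000000 on a log scale, for UW (circles) and W (squares); bars are 95% counting intervals, and clusters run from basal-like (3) and limbal-like (9) to superficial-like (6 and 7). W squares lie below UW circles in every cluster for Dsg1a, Dsc3 and Dsp, and above them in every cluster for Pkp3.

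The desmogleins are the cadherins by which desmosomes of stratified epithelia differ most from layer to layer. Their genes stand in a row beside those of the desmocollins.

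Dsg1a encodes one of the mouse copies of desmoglein 1, the desmoglein known from the upper layers of stratified epithelia. In UW epithelial cells it stood at 358 CPM (95% interval 356 to 360), and in W at 39.4 CPM (38.6 to 40.2). Only 12 of the 7456 genes tested had a lower ratio of W to UW. In UW its level was highest in cluster 4 (727 CPM), cluster 1 (570.0 CPM) and cluster 2 (549.8 CPM), the suprabasal-like cells. It was 217 CPM in basal-like cluster 3 and 213 CPM in cluster 5, whose intervals overlapped, and lowest in limbal-like cluster 9 (36.6 CPM) and superficial-like cluster 7 (18.6 CPM). The UW pattern was thus a peak in the middle layers, with a 39.1-fold span. Its low end, cluster 7, lay below the 21.2 CPM of stromal cluster 0, which should lack the gene. In W the same 3 clusters stayed highest, at 114 CPM in cluster 4, 110.4 CPM in cluster 2 and 94.5 CPM in cluster 1, and the intervals of clusters 4 and 2 overlapped.

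The level of Dsg1a in W was lower in all 10 clusters, between 3.65-fold in superficial-like cluster 6 (117 to 32.0 CPM) and 15.4-fold in basal-like cluster 3 (217 to 14.1 CPM). The 4 clusters with the largest differences were the basal-like, S phase-like, limbal-like and mitotic-like ones, with log2 ratios of -3.95, -3.48, -3.26 and -3.25. In the suprabasal-like clusters 1 and 4 the log2 ratios were -2.59 and -2.67, and in cluster 2 -2.32. With the clusters held at their UW shares, the epithelial log2 ratio was -2.72 in place of -3.18.

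Dsg1a was also detected in fewer W cells. A UMI of it was found in 82.0% of UW and 37.8% of W epithelial cells. After each cell was thinned to 5000 UMIs, which left out 367 UW and 176 W cells, the shares were 62.3% and 14.4%. In cluster 4 the thinned cells held 3.97 UMIs of Dsg1a on average in UW and 0.52 in W, and cells with 3 or more made up 71.0% and 3.14%. Stromal cells of cluster 0, which should lack the gene, show the free RNA of these suspensions: at 2000 UMIs per cell, a UMI of Dsg1a was found in 3.89% to 5.64% of them in UW and 0.16% to 0.84% in W (95% intervals), against 41.0% and 6.82% of epithelial cells.

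Dsg3, the desmoglein known from the lower layers of the epidermis, stood at 228 CPM (227 to 230) in UW and 235 CPM (233 to 237) in W, a log2 ratio of 0.04. Its direction depends on the scaling of the libraries, since the log2 ratio was -0.17 with TMM factors and -0.19 with median-of-ratios factors. Across clusters its levels in UW ran from 355 CPM in cluster 4 and 353 CPM in cluster 1, whose intervals overlapped, down to 16.1 CPM in superficial-like cluster 7. Dsg3 was therefore not highest in basal-like cluster 3, which held 211 CPM in UW and 247 CPM in W. Between the libraries it was past 1.5-fold only in the superficial-like clusters, where W was higher. The levels there were 117 CPM in UW and 195 CPM in W in cluster 6 (log2 ratio 0.74, and 0.58 with TMM factors, inside the rule), and 16.1 and 45.5 CPM in cluster 7, a 2.83-fold difference (log2 ratio 1.12 with TMM factors).

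Dsg2, the desmoglein that simple epithelia also use, stood at 34.6 CPM (34.0 to 35.2) in UW and 29.9 CPM (29.3 to 30.6) in W. In UW it was highest in superficial-like cluster 6 (68.0 CPM), conjunctival-like cluster 5 (54.8 CPM) and limbal-like cluster 9 (54.5 CPM), the last pair with overlapping intervals, and lowest in cluster 4 (15.4 CPM). In W the levels of basal-like cluster 3 (44.3 CPM, 1.31-fold higher than in UW) and limbal-like cluster 9 (42.9 CPM) came first, with overlapping intervals. It was lower in W by more than 1.5-fold in clusters 6, 7 and 2, by 2.65-fold in cluster 6 (25.7 CPM in W).

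Shares of all desmoglein UMIs do not depend on how a library is scaled. Dsg1a made up 54.7% of desmoglein UMIs in UW epithelial cells (54.5% to 55.0%) and 12.3% in W (12.1% to 12.6%), and Dsg3 34.9% and 73.6%. Dsg2 went from 5.30% to 9.36%, and Dsg1b from 5.0% to 4.74%. Most desmoglein UMIs of the summed epithelium thus came from Dsg1a in UW and from Dsg3 in W. The share of Dsg1a was lower in W in all 10 clusters and that of Dsg3 higher in all 10. Dsg3 led in every cluster of W. In UW it already led in mitotic-like cluster 8 (50.7%, beside 33.4% for Dsg1a), limbal-like cluster 9 (47.9% and 19.5%) and S phase-like cluster 11 (44.1% and 40.9%). With cells thinned to 5000 UMIs the lead in UW cluster 11 turned to Dsg1a (45.1%, beside 40.9% for Dsg3). In UW cluster 5 it turned from Dsg1a (43.1%, beside 42.5% for Dsg3) to Dsg3 (43.1%, beside 41.5% for Dsg1a). In UW cluster 6 both held 37.4%, and in UW cluster 7 Dsg2 led. In UW the share of Dsg1a ran from 19.5% in limbal-like cluster 9 to 62.7% in cluster 4, and in W from 2.95% in cluster 9 to 21.1% in cluster 2, so the ranges met only at their ends. Dsg3 held 62.2% to 79.0% of desmoglein UMIs in W and 23.1% to 50.7% in UW. The share of Dsg2 was largest in cluster 7 in UW (48.1%, and 28.5% in W) and in limbal-like cluster 9 in W (33.2%, and 29.1% in UW).

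Detection of both genes was also counted per cell. A UMI of Dsg3 was found in 55.8% of UW and 59.9% of W epithelial cells thinned to 5000 UMIs, so the counts that follow mostly restate the lower detection of Dsg1a. Of these cells, 42.9% in UW and 11.2% in W held UMIs of both Dsg1a and Dsg3. Cells with Dsg3 and without Dsg1a made up 12.9% in UW and 48.7% in W, and cells with Dsg1a alone 19.5% and 3.24%. Each of these differences had the same direction in all 10 clusters. In suprabasal-like cluster 4, 78.1% of UW cells and 30.7% of W cells held both. In basal-like cluster 3 the shares were 33.8% and 4.62%, with Dsg3 alone in 60.8% of W cells. A gene not seen at this depth may still be present in a cell.

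**Figure D2:**
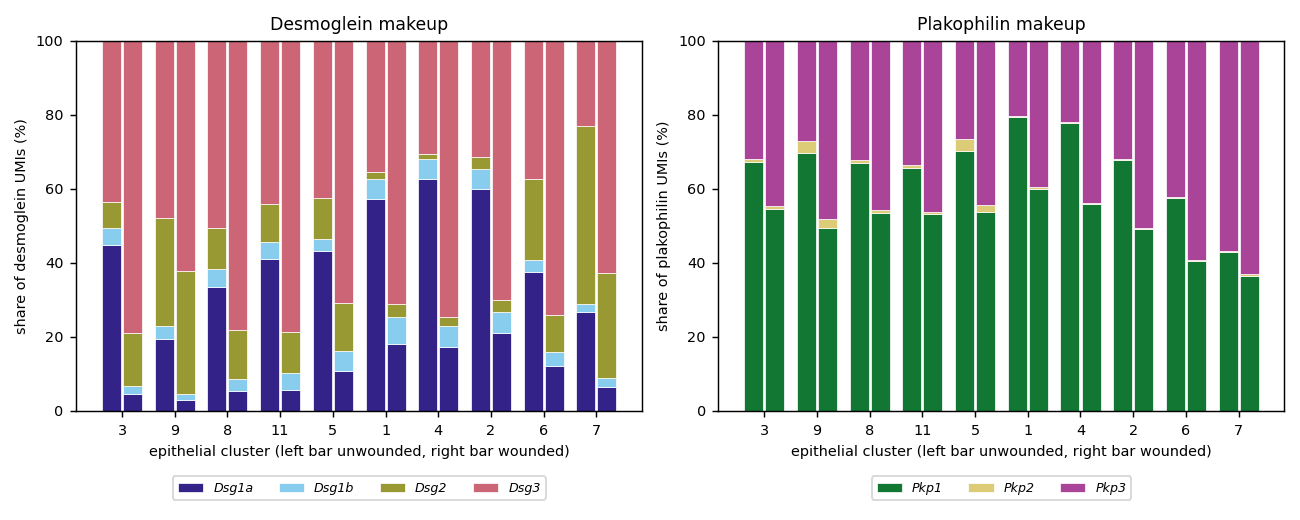
Makeup of desmoglein UMIs (left panel) and plakophilin UMIs (right panel) in each epithelial cluster, as percent of the family's UMIs; the left bar of each pair is UW and the right bar W. The Dsg1a part is smaller and the Dsg3 part larger in W in all 10 clusters, and the Pkp3 part is larger in W in all 10.

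The desmocollins pair with the desmogleins in the same junction. Dsc3, the desmocollin of lower layers in skin, stood at 481 CPM (479 to 484) in UW and 186 CPM (185 to 188) in W, 2.58-fold lower. In UW it was 938 CPM in suprabasal-like cluster 1, 832 CPM in basal-like cluster 3, and 729 and 722 CPM in the mitotic-like and S phase-like clusters 8 and 11, whose intervals overlapped. Suprabasal-like cluster 4 (620 CPM) came before limbal-like cluster 9 (465 CPM). It stood at 79.2 and 31.9 CPM in the superficial-like clusters 6 and 7. In W the top 3 clusters were 8, 11 and 9, at 266, 263 and 261 CPM with intervals that overlapped in that order, so limbal-like cluster 9 moved from the sixth place to the third.

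The W level of Dsc3 was lower by more than 1.5-fold in all 10 clusters. In superficial-like cluster 7 the intervals of Dsc3 overlapped those of stromal cluster 0 in both libraries, and the part of free RNA there was not tested. The smallest difference was in limbal-like cluster 9, at 1.78-fold (465 to 261 CPM), and the largest were in clusters 2 and 4, at 4.48-fold (282 to 62.9 CPM) and 4.40-fold (620 to 141 CPM). The differences of Dsc3 were thus larger in the middle layers than in the basal-like cluster (3.58-fold), where that of Dsg1a was largest.

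Dsc2, the more widely expressed desmocollin, stood at 500.4 CPM (498 to 503) in UW and 273 CPM (271 to 275) in W, 1.83-fold lower. Its UW level was highest in cluster 4 (855 CPM), cluster 2 (766 CPM) and cluster 1 (626 CPM), and lowest in cluster 7 (67.4 CPM). The clusters kept the same order in W, from 571 CPM in cluster 4 to 72.3 CPM in cluster 7. Within single clusters the difference was smaller than in the sum: it passed 1.5-fold only in conjunctival-like cluster 5 (547 to 321 CPM, 1.70-fold) and basal-like cluster 3 (273 to 179 CPM, 1.53-fold), and the log2 ratios ran from -0.77 to 0.10, all above the -0.87 of the summed cells. Which clusters pass depends on the processing. With TMM factors cluster 1 passed too (-0.62 in place of -0.50) and cluster 7 turned to -0.28. As a mean of cell CPM, clusters 2 and 4 passed (-0.61 and -0.62) and cluster 3 did not (-0.47), and with thinned cells the same clusters changed (-0.61, -0.60 and -0.45). With the clusters held at their UW shares the log2 ratio was -0.63. Dsc3 made up 49.0% of desmocollin UMIs in UW and 40.5% in W, and its share was lower in W in all 10 clusters. It held 79.7% in UW and 74.5% in W of limbal-like cluster 9, and 42.0% and 19.8% in cluster 4.

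Desmoplakin, encoded by Dsp (chr13:38151294-38198577, plus strand, GRCm38), is the plakin that ties the junction to keratin filaments, and plakoglobin, encoded by Jup (chr11:100368958-100397763, minus strand), is the armadillo protein that links the cadherin tails to it. The products of these genes bind in the same plaque, but their RNA levels differed between the libraries in unlike ways, so the stretch before the start of each is shown. The 250 bases before each start site, from RefSeq on GRCm38.p6, are printed 5′ to 3′ on the strand of the gene, at chr13:38151044-38151293 for Dsp and chr11:100397791-100398040 for Jup, with matches to the GC box letters GGGCGG, on either strand, in capitals.
Dsp: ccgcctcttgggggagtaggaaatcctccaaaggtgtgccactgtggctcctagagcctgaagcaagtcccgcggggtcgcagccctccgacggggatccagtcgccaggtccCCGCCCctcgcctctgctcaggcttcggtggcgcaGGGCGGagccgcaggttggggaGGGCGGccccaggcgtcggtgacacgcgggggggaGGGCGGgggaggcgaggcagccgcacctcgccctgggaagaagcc
Jup: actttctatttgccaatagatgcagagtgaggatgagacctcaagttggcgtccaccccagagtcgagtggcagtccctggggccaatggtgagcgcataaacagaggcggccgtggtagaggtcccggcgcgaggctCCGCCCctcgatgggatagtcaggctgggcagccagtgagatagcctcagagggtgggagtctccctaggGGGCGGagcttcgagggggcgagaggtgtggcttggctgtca
The Dsp stretch holds 4 such matches and the Jup stretch 2, and 32.7% of 32851 promoter stretches of this length hold at least 1. Searched on both strands, the letters CAGGTG, which Snail-type factors can bind, occur in neither stretch and in 17.2% of all stretches. The letters TGANTCA, which AP-1 can bind, occur in neither and in 6.75% of all, and AACCNGTT, which grainyhead factors can bind, in neither and in 1.79% of all. G and C made up 72.4% of the Dsp stretch and 62% of the Jup stretch, beside a median of 52.4% over all promoter stretches. Promoters of the other 8 members were not used here.

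Dsp stood at 1753 CPM (1749 to 1758) in UW and 689 CPM (685 to 692) in W, 2.54-fold lower. In UW it was highest in clusters 1 and 4 (2847 and 2738 CPM) and in basal-like cluster 3 (2023 CPM), and lowest in superficial-like cluster 7 (163 CPM). In W clusters 1 and 4 were highest again, at 1077 and 1068 CPM with overlapping intervals. W was lower in all 10 clusters and by more than 1.5-fold in 9, the exception being cluster 7 (163 to 113 CPM, 1.44-fold; with TMM factors its log2 ratio was -0.91, past 1.5-fold). The difference was largest in basal-like cluster 3, at 2.88-fold (2023 to 704 CPM) and smallest in the superficial-like clusters, with 1.53-fold in cluster 6. In between, the log2 ratios were -1.40 and -1.36 in suprabasal-like clusters 1 and 4, -1.14 in suprabasal-like cluster 2, -1.27 in clusters 8 and 11, -1.07 in limbal-like cluster 9 and -0.95 in conjunctival-like cluster 5. Cells thinned to 5000 UMIs held 8.67 UMIs of Dsp on average in UW and 3.25 in W, and 92.6% and 86.5% of them had at least 1. Cells with 0 were most frequent in cluster 7 (52.4% in UW and 62.8% in W) and cluster 6 (9.13% and 22.1%). At 2000 UMIs per cell the shares with a UMI were 84.1% and 63.9% in the epithelium, and 16.1% and 9.43% in keratocyte-like cluster 0, which should lack desmosomes.

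Jup stood at 674 CPM (672 to 677) in UW and 628 CPM (625 to 631) in W, a log2 ratio of -0.10. It was nearly level within clusters: W was higher in 9 of 10, up to 1.2-fold in cluster 1, and lower in basal-like cluster 3 (601 to 519 CPM, 1.16-fold). With TMM factors clusters 6 and 7 turned to log2 ratios of -0.14 and -0.35. With the clusters held at their UW shares the log2 ratio turned to 0.05. Across the layers Jup spanned 4.05-fold in UW, from 927 CPM in cluster 4 to 229 CPM in cluster 7. It stayed at 233 CPM in cluster 7 of W.

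The plakophilins are the armadillo proteins that gather desmoplakin and cadherins in the plaque. Pkp3 (chr7:141078218-141090510, plus strand) was the only member higher in W, at 124 CPM (123 to 125) in UW and 232 CPM (230 to 234) in W, 1.88-fold. It was higher by more than 1.5-fold in all 10 clusters. The differences were largest in suprabasal-like clusters 1 and 4, at 2.94-fold (105 to 309 CPM) and 2.86-fold (137 to 391 CPM), and smallest in cluster 7, at 1.71-fold (59.8 to 102 CPM). In cluster 7 the call is lost with TMM factors (log2 ratio 0.39 in place of 0.77). The share of epithelial cells with a UMI at 5000 UMIs per cell was 42.7% in UW and 63.7% in W.

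Pkp1 (chr1:135871395-135919207, minus strand), the plakophilin best known from the upper layers of skin, stood at 300.4 CPM (299 to 302) in UW and 262 CPM (260 to 264) in W, and was past 1.5-fold in no cluster. Its log2 ratios ran from -0.45 in limbal-like cluster 9 (173 to 127 CPM) to 0.39 in cluster 7 (45.1 to 59.3 CPM). Held at UW shares of the clusters, the epithelial log2 ratio was 0.01 in place of -0.20. Of plakophilin UMIs, Pkp1 held 70.3% in UW and 52.5% in W, and Pkp3 29.0% and 46.7%, and the Pkp3 share was higher in W in all 10 clusters. Pkp3 passed Pkp1 in W in cluster 2 (50.6% against 49.1%) and cluster 6 (59.2% against 40.6%). In cluster 7 it led in both libraries, with 56.9% in UW and 62.9% in W. Pkp2 made up 0.67% and 0.78% of plakophilin UMIs.

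Perp (chr10:18845020-18857073, plus strand), a membrane protein with several membrane spans that desmosomes of stratified epithelia need, stood at 2603 CPM in UW and 1731 CPM in W. Its epithelial ratio, lower in W by a log2 ratio of -0.59, sits at the limit of the rule, and it falls inside when the clusters are held at their UW shares (log2 ratio -0.54). The clusters went different ways. W was lower by more than 1.5-fold in cluster 4 (4290 to 2434 CPM), basal-like cluster 3 (2248 to 1392 CPM), cluster 2 (3393 to 2160 CPM) and cluster 1 (3759 to 2493 CPM). It was close in cluster 6, at 1168 and 1169 CPM (log2 ratio -0.16 with TMM factors), and higher in cluster 7, at 221 CPM in UW and 400.4 CPM in W, 1.81-fold. With TMM factors the log2 ratio in cluster 7 was 0.48 in place of 0.86, inside 1.5-fold. Of cells thinned to 5000 UMIs, 95% in UW and 97.8% in W held a UMI of Perp, and the mean was 12.6 and 8.05 UMIs. Cells without one were mainly those of cluster 7 (38.2% of its cells in UW and 24.0% in W), whose share of the epithelium was smaller in W. In clusters 2, 3, 4 and 11 no thinned UW cell lacked Perp, and 0.45%, 1.39%, 0.22% and 0.18% of the W cells did. In cluster 1 none lacked it in either library. The share was lower in W in clusters 5 (0.47% in UW and 0.34% in W), 6 (4.6% and 3.84%), 8 (0.20% and 0.15%) and 9 (1.58% and 0.84%).

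**Figure D3:**
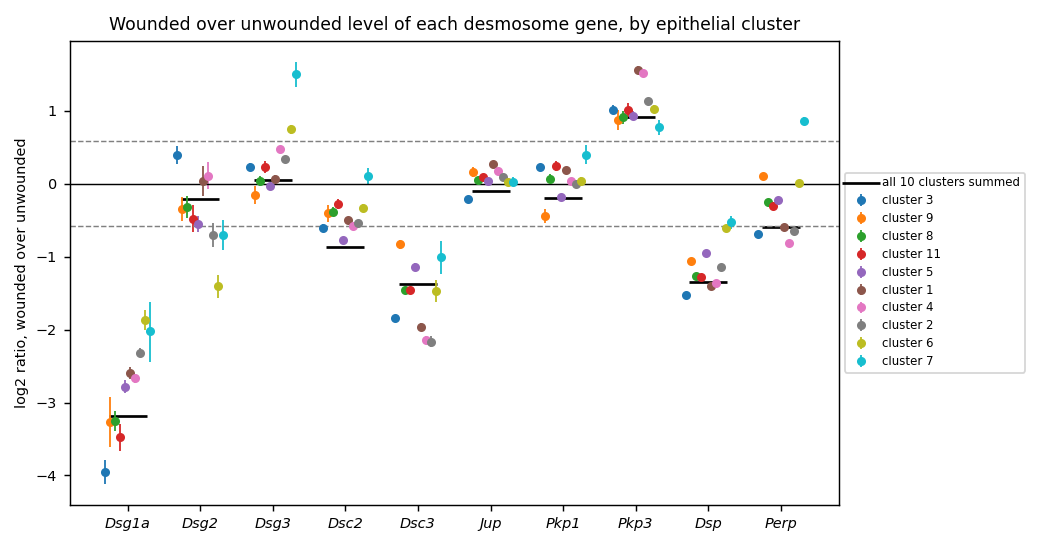
Log2 ratio of W to UW for each desmosome gene in each epithelial cluster (points, with 95% counting intervals) and in the 10 clusters summed (black bars); dashed lines mark 1.5-fold. All points of Dsg1a, from -3.95 to -1.87, and of Dsc3 lie below the lower line, all points of Pkp3 lie above the upper line, and those of Perp run from -0.82 to 0.86.

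The 9 desmosomal cadherin genes of chromosome 18 stand within 644 kb of the GRCm38 genome, in the order Dsc3, Dsc2, Dsc1, Dsg1c, Dsg1a, Dsg1b, Dsg4, Dsg3 and Dsg2. Only 6 of them reached 10 CPM in the epithelial cells of either library. Dsc1, Dsg1c and Dsg4 stood at 0.18, 0.093 and 0.021 CPM in UW. The log2 ratios of the 6, in order along the chromosome, were -1.37, -0.87, -3.18, -1.11, 0.04 and -0.21, so genes side by side differed. Dsg1a and Dsg1b are neighbouring copies of 1 gene whose reads can be hard to tell apart, which leaves the split between them uncertain. Dsg1b stood at 32.7 CPM in UW and 15.2 CPM in W, 2.15-fold lower, so the sum of both copies was lower as well.

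**Figure D4:**
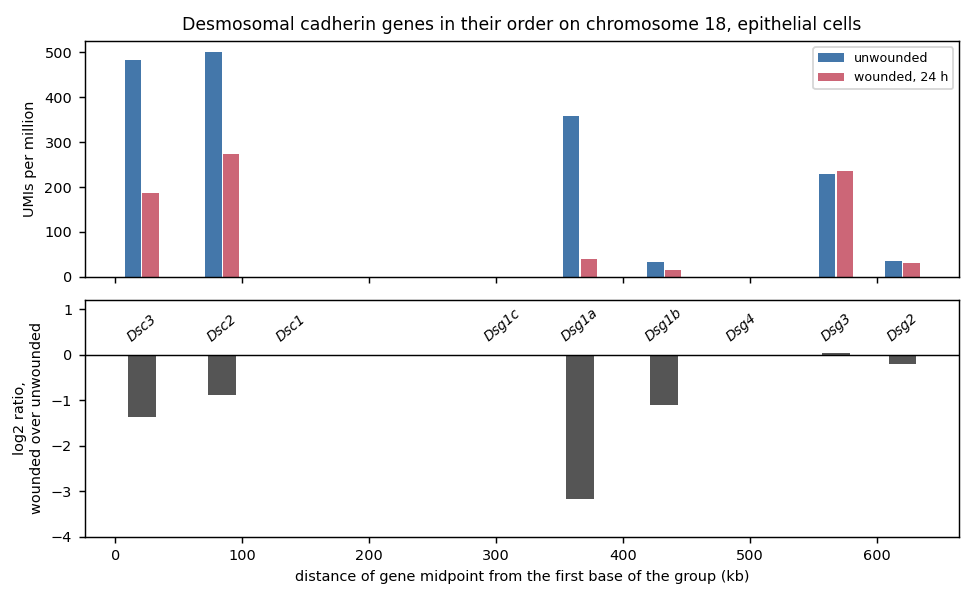
The 9 desmosomal cadherin genes at the distance of their midpoints, in kb, from the first base of the group on chromosome 18; the upper panel gives the level in epithelial cells of UW and W in UMIs per 1000000, and the lower panel the log2 ratio of W to UW for the 6 genes at 10 CPM or more. The bar of Dsg1a reaches -3.18 and those of Dsg3 and Dsg2 lie near 0.

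Summed over the 10 genes, the level was lower in W in 9 of 10 clusters. It was 11151 CPM in UW and 6766 CPM in W in cluster 4, 6761 and 3794 CPM in basal-like cluster 3 (1.78-fold lower, the largest difference), and 3498 and 2827 CPM in limbal-like cluster 9. In cluster 7, which carries the least desmosome RNA, it was 884 CPM in UW and 1066 CPM in W. With TMM factors the log2 ratio in cluster 7 shifts by -0.38, which is more than its 0.27. Counted per cell, limbal-like cells held 51.1 UMIs of the 10 genes in UW and 73.6 in W, mitotic-like cells 126 and 131, and basal-like cells 124 and 96.8. The W cells of clusters 8, 9 and 11 also held more UMIs in all, with medians of 35499, 24009 and 35514 beside 24704, 13944 and 21461 in UW. So did the W cells of basal-like cluster 3, with a median of 23906 beside 18682 in UW.

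Set beside the genes tested in the same cluster, members lower in W numbered 3 to 5 of 10 in each epithelial cluster. In basal-like cluster 3, 1 member was higher and 5 were lower, beside 20.7% and 21.5% of all genes, and in limbal-like cluster 9, 1 and 3, beside 18.3% and 20.2%. In mitotic-like cluster 8 they were 1 and 3, beside 16.4% and 21.2%, in S phase-like cluster 11, 1 and 3, beside 21.3% and 19.6%, and in conjunctival-like cluster 5, 1 and 4, beside 15% and 20.2%. In suprabasal-like clusters 1 and 4, 1 member was higher and 4 were lower in each, beside 17.9% and 23.6% of genes in cluster 1 and 13.9% and 31.1% in cluster 4. In cluster 2 they were 1 and 5, beside 12.6% and 31.3%. In the superficial-like clusters, 2 were higher and 4 lower in cluster 6, beside 19.1% and 23.5%, and 3 and 3 in cluster 7, beside 26.9% and 19.6%, where the count turns with the scaling. With TMM or median-of-ratios factors Pkp3 and Perp in cluster 7 fell inside the rule and Dsp passed it (-0.91 and -0.94), which leaves 1 higher, Dsg3, and 4 lower. At 2-fold in place of 1.5-fold, 0 members were higher and 3 lower in the summed epithelium, beside 12.5% and 7.83% of all genes, and 7 and 27 of the 100 pairs, beside 8.32% and 9.20% of all pairs.

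Scaling by total UMIs, TMM or median-of-ratios factors changed levels as a whole: TMM moved every epithelial log2 ratio by -0.22 and median-of-ratios factors by -0.23, the median over all genes included. Under TMM 17.4% of all epithelial genes were higher and 28.3% lower by 1.5-fold, and the desmosome genes still split into 1 higher and 5 lower. In single clusters TMM gave 10 pairs higher and 40 lower, beside 17.5% and 24.4% of all pairs.

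Of 9 other linkers of desmosomes and of the cornified envelope, 4 reached 10 CPM in the summed epithelium, and all 4 were lower by more than 1.5-fold, beside 19.0% of all genes: Ppl, which encodes the plakin periplakin, was 1175 CPM in UW and 524 CPM in W, Evpl, which encodes envoplakin, 601 and 334 CPM, Pkp4 85.5 and 53.7 CPM, and Dsg1b as above. Ppl passed the rule in 7 clusters of 10, and Evpl in 1. The median log2 ratio of the 4 was -0.98. Cdsn, the corneodesmosin of cornified layers, stayed below 10 CPM in the sum (2.50 and 4.43 CPM) and stood at 7.67 CPM in UW and 29.5 CPM in W in cluster 6, and at 4.68 and 22.1 CPM in cluster 7. It passed the filter in these clusters only through its W level.

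Of 10 genes of adherens junctions, the neighbouring actin-bound junctions, 1 was higher and 2 were lower, beside 24.6% and 19.0% of all genes, so the count lower was close to that share. Ctnna1, the alpha-catenin that binds actin, was 394 CPM in UW and 184 CPM in W and lower in 9 clusters of 10. Afdn, or afadin, was 245 and 139 CPM. Cdh3, the P-cadherin of basal cells, was 3.0 CPM in UW and 20.9 CPM in W, and so passed the filter through its W level. Cdh1, the E-cadherin, was 151 and 142 CPM, inside the rule, and Ctnnb1 190 and 172 CPM. The median of this list was -0.15.

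Of 12 listed proteases that can act on desmosomal cadherins and their inhibitors, 8 reached 10 CPM, and of these 2 were higher and 2 lower, beside 24.6% and 19.0% of all genes. The kallikreins Klk8 and Klk10 were 4.71 and 12 CPM in UW and 29.9 and 30.9 CPM in W, and Klk8 passed the filter only through its W level. The membrane sheddases Adam10 and Adam17 were 42.9 and 32.1 CPM in UW and 28.3 and 20.3 CPM in W, and Adam17 was lower in 9 clusters of 10. The inhibitor gene Spink5 was 98.6 and 135 CPM, inside the rule in the sum but higher in 8 of 9 clusters. St14, which encodes the protease matriptase, was 57.8 and 74.4 CPM and higher in 8 of 10 clusters, and Klk11 31.5 and 45.2 CPM and higher in 5 of 7.

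Of 11 transcription factors of epithelial differentiation and adhesion, 2 were higher and 2 lower, beside 24.6% and 19.0% of all genes. Grhl1, a grainyhead factor known to act on desmoglein 1 genes, was 108 CPM in UW and 51.5 CPM in W, lower in 8 clusters of 10, while Grhl2 and Grhl3 stood inside the rule in the sum. Ovol1 was 163 and 105 CPM. Snai2, a repressor of cell adhesion genes, was 5.76 and 19.8 CPM, and Ovol2 8.74 and 13.3 CPM, and both passed the filter only through their W level. Trp63, the p63 factor of basal cells that acts on Perp, was 61.5 and 71.5 CPM.

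The keratins, to which desmoplakin anchors, differed in both directions, with 5 of 12 higher and 2 lower, beside the same 24.6% and 19.0%. Krt14 was 514 CPM in UW and 11192 CPM in W, and Krt16 726 and 4700 CPM, both higher in all 10 clusters. Krt17, Krt19 and Krt4 were 7.82-fold, 2.42-fold and 1.87-fold higher. Krt13, Krt15 and Krt6a stood inside the rule in the sum but were higher in 9, 8 and 6 clusters of 10. Krt6b, also inside it, was higher in 5 and lower in 1. The corneal keratin Krt12 was 26753 CPM in UW and 12352 CPM in W, and the superficial keratin Krt78 108 and 14.3 CPM. The list's median log2 ratio was 0.46.

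Among 3211 genes at 50 CPM or more in some epithelial cluster of each library, the gene whose levels ran most like those of a desmosome gene over the 10 clusters was found by the smaller of its Pearson correlations in UW and W, leaving out the members themselves. For Dsg1a it was Polb (0.98), for Dsg3 Riox2 (0.98), for Dsc2 Tmem154 (0.98), for Dsc3 Cox20 (0.99), for Dsp Cdc42se1 (0.99), for Jup Ppp1r13l (0.98), for Pkp1 Esrp2 (0.97), for Pkp3 Sqle (0.94) and for Perp Sorl1 (0.99). Dsg2 had no gene above 0.77, that of Runx1. The 10 points of each correlation share their libraries, and clusters were built on all genes, so these are descriptions.

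Outside the epithelium the genes were read against free epithelial RNA, gauged by the keratins Krt12, Krt5 and Krt14. In the keratocyte-like cluster 0 of UW these stood at 5.81% to 11.2% of their epithelial level, and the desmosome genes at 4.43% to 14% with a median of 5.50%. In W the keratins stood at 5.96% to 7.34% and the desmosome genes at 5.15% to 14.7%. The interval of 1 member of 10 lay above the keratins in UW, that of Jup, which adherens junctions also hold, at 94.3 CPM. In W those of Jup (92.3 CPM) and Pkp1 (8.24% of its epithelial level) did. Aldh3a1, also chosen as a gauge, was left out of the keratin range. It stood at 77.5% in UW and 82.8% in W of its epithelial level in cluster 0, above every desmosome gene there. In cluster 16 of W it stood at 23.3%. Past 1.5-fold in cluster 0 were 1 member higher and 3 lower of 9 tested, beside 9.60% and 16.8% of all genes there, and in cluster 10, whose leading genes were Penk and Myoc, 1 higher and 4 lower of 9, beside 8.85% and 12.4%. Dsg1a in cluster 0 was 21.2 CPM in UW and 2.87 CPM in W, and Pkp3 7.07 and 17.4 CPM, the directions of the epithelium. In cluster 10 they were 23.8 and 2.88 CPM, and 9.81 and 19.2 CPM. In both clusters Pkp3 passed the filter only through its W level and Dsg1a only through its UW level.

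Clusters 13 to 16 were found almost only in W, with at most 7 cells each in UW. In cluster 13, whose cells had a median of 2509.5 UMIs, the keratins stood at 29.0% to 36.8% and the members at 17.1% to 34.4% of the epithelial level. In cluster 15, which was monocyte- and macrophage-like, these were 10.1% to 11.7% and 6.16% to 13.2%. In cluster 14, led by H2-Aa and Cd74, they were 33.5% to 49.0% and 28.3% to 52.0%, the highest being Pkp3, whose interval (47.3% to 57.0%) reached into the keratin range. In lymphocyte-like cluster 16 the interval of Pkp3 lay above the keratins. Pkp3 stood there at 152 CPM (129 to 178), 65.4% of its epithelial level, beside 17.0% to 21.1% for the keratins, and at 2000 UMIs per cell it was found in 17.4% to 29.3% of cells (95% interval), against 3.08% to 9.18% in cluster 15, where the keratin background was lower, and 11.6% to 20.2% in cluster 14, where it was higher.

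**Figure D5:**
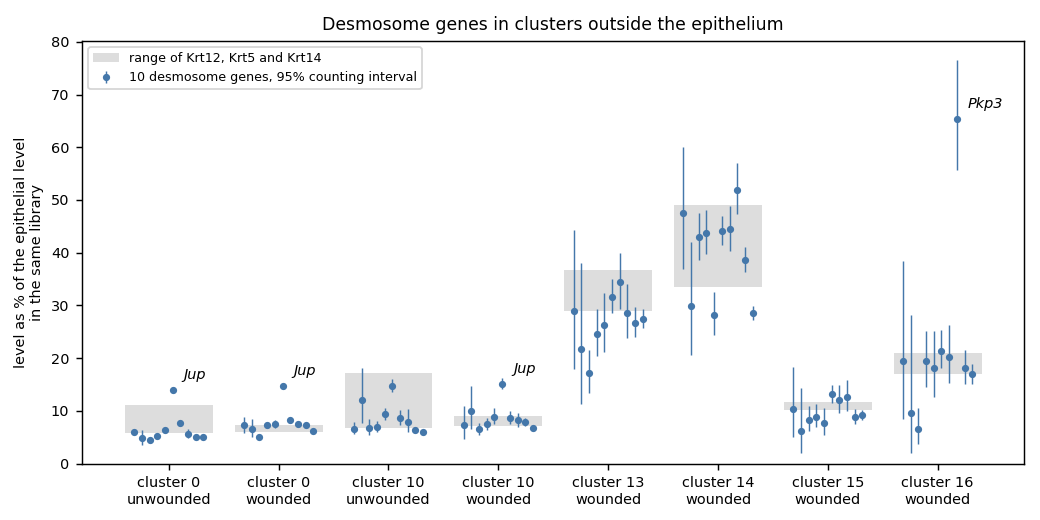
Level of the 10 desmosome genes (points, with 95% counting intervals) in clusters outside the epithelium, as percent of the epithelial level of the same library; grey bars span the values of Krt12, Krt5 and Krt14. Pkp3 in cluster 16 lies at 65.4%, above the grey bar, and Jup lies above it in cluster 0.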

How the data were processed

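The deposited table holds UMI counts per gene and cell, which the authors made with Cell Ranger 3.1.0 from 10x 3′ libraries, with Seurat for filtering and clusters. They kept cells of 500 to 8000 genes with at most 10% mitochondrial UMIs and genes seen in at least 5 cells, and removed doublets. The labels and the study's methods name different mouse genome builds and kit versions. The libraries held 16450 UW cells with 367166822 UMIs and 12417 W cells with 289586482 UMIs.

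Counts were summed per library and deposited cluster and given as CPM with exact 95% intervals for counting error only (Python 3.11.15, numpy 2.4.6, pandas 2.3.3, scipy 1.17.1, matplotlib 3.10.9). Genes at 10 CPM or more in either library were compared, and 1.5-fold was the call. The script for ratios and intervals was tested on simulated data. With 1 library per condition no p-value was computed. Scaling by TMM (edgeR 4.0.16) and median-of-ratios factors (DESeq2 1.42.0, R 4.3.3), cell filters, thinning, doublet calls, fixed cluster shares and a 2-fold call were tried as alternatives. Genes outside the 10 were named by 2 rules: members of 5 gene lists past 1.5-fold, and the 3 genes most like each member across clusters at 50 CPM or more, by Pearson's r of log2(CPM + 1), of which the first is given. A few others within 1.5-fold were named after their values were seen. The members and lists were chosen with earlier results of these data known. Gene positions come from GENCODE M21 on GRCm38.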

Additional observations from a re-analysis of the deposited data

Results flagged for a closer look

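Perp went different ways in different layers. Its log2 ratio of W to UW was 0.86 in superficial-like cluster 7, and -0.65 in cluster 2, -0.69 in cluster 3 and -0.82 in cluster 4. With 1 library per condition the difference between these clusters was not tested.

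Outside the epithelium, where the desmosome genes were not compared between conditions for their own sake, some stood above the keratin background. Jup was at 14% of its epithelial level in keratocyte-like cluster 0 of UW, 14.7% in cluster 0 of W and 15.2% in cluster 10 of W. Pkp1 was at 8.24% in cluster 0 of W. Pkp3 was at 65.4% in lymphocyte-like cluster 16 of W, on 158 UMIs in 215 cells.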

How the results depend on the processing

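No paired analysis was possible because each condition had 1 library. The log2 ratio of the summed level, -0.71, was -0.93 with TMM factors, -0.95 with median-of-ratios factors, -0.72 with the stricter cell filter, -0.73 as a mean of cell CPM, -0.72 with cells thinned to 5000 UMIs, -0.70 without cells that any doublet column marks, -0.61 with clusters held at UW shares and -0.76 without cluster 5. At 2-fold, 0 members were higher and 3 lower in the summed epithelium, and 7 pairs of gene and cluster were higher and 27 lower (12.5%, 7.83%, 8.32% and 9.20% of all genes or pairs). Of the 51 pairs past 1.5-fold, 48 to 51 kept their call under the 6 alternatives run on pairs, and 0 turned to the opposite call. In the summed epithelium Dsg1a, Dsc2, Dsc3, Dsp and Pkp3 kept direction and call in 8 of 8 alternatives. Perp lost its call with clusters held at UW shares. The sign of Dsg3 held in 5 of 8, with log2 ratios from -0.19 to 0.27, and the signs of Jup and Pkp1 in 7 of 8. Counting intervals are narrow at this depth and say nothing of differences between mice.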

Other observations

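Marker lists of the layers differed between the libraries alongside the desmosome genes. The summed level of the basal list was higher in W in 10 of 10 epithelial clusters, that of the superficial list in 0, that of the suprabasal and differentiating list in 8 and that of the conjunctival list in 10. The part of these shifts in the results was not tested. A summed level weighs the genes with most UMIs most, so a list can be higher while some of its genes are lower. The stromal keratocyte list was higher in W in 7 of 10 clusters, and the lymphocyte list, at most 3.67 CPM, in 10 of 10.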
